A study of Mus musculus with 2 samples.

Results

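The 8 genes considered here are the corepressor genes Tle1, Tle3 and Tle4, the LIM-only genes Lmo1, Lmo2 and Lmo4, and the LIM-binding adaptor genes Ldb1 and Ldb2. Their peaks were taken from a list of ISL1 binding sites in pacemaker cells, as every peak whose nearest transcription start site (TSS) belonged to one of the 8, at any distance. That gave 12 of the 1483 peaks. They fell to 5 of the 8 genes, and Lmo2, Ldb1 and Ldb2 had none.

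The cells were sinoatrial node cells of Hcn4-H2BGFP mice on the ICR background, taken at postnatal day 1 to 3 and sorted for green fluorescence. Hcn4 encodes a channel of the pacemaker current, and a sort on its reporter collects the cells in which that reporter is on. The study held 1 ISL1 immunoprecipitate and 1 input DNA library of the same cells. The input was not analysed here, and how many animals were pooled is not given in the sources used here. With 1 library there was no replicate, so no difference below has a replicate check, and the intervals cover counting error only. Intervals on shares and medians treat peaks or genes as independent, although several peaks share a gene. A peak list holds no expression values, so the identity of the cells could not be checked from it: of 5 pacemaker marker genes, Isl1 and Tbx18 were nearest to a peak and Hcn4, Tbx3 and Shox2 were not. Of other markers, 1 of 3 endothelial genes (Emcn), 1 of 3 fibroblast genes (Tcf21) and 0 of 5 working myocardium genes were, beside 3.82% of all RefSeq genes.

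ISL1 carries a pair of LIM domains, which bind proteins, and a homeodomain, which binds DNA at sites with a TAAT core. LDB1 and LDB2 dimerize and bind the LIM domains, so that they tie LIM-homeodomain factors to each other and to other DNA-binding proteins. LIM-only proteins have LIM domains and no homeodomain, and compete for the same adaptors. TLE proteins, the mammalian relatives of fly Groucho, do not bind DNA themselves and are brought to genes by other factors, where they repress transcription. The peaks show where ISL1 sat near the genes of these proteins, not whether ISL1 met the proteins themselves.

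The sequences at the peaks were not analysed here, so 4 start windows from 3 of the genes are printed instead, as RefSeq gives them in build GRCm38.p6. Each window runs from 250 bases before the start to 50 bases from it on, 5′ to 3′ on the strand of the gene. Of 3 Lmo4 windows, 2 are shown because the list assigns its 2 Lmo4 peaks to these 2 starts. Of 2 overlapping Lmo1 windows, which hold the same homeodomain motif, 1 is shown. Of 3 Ldb1 windows, the 1 that holds a motif is shown, as a gene without a peak. Capitals mark matches, on either strand, to 5 motifs: the homeodomain motif CTAATG, the homeodomain palindrome TAATTA, the related motif TAATGG, the Meis-type motif TGACAG and the GATA-type motif AGATAA.
Lmo4, first start, chr3:144205206-144205505, minus strand: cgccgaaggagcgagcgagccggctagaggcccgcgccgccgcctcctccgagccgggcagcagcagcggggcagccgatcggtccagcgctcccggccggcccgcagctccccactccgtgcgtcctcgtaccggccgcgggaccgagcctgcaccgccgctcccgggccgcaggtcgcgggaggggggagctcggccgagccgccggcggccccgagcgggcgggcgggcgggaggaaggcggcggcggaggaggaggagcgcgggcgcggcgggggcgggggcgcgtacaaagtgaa
Lmo4, second start, chr3:144202283-144202582, minus strand: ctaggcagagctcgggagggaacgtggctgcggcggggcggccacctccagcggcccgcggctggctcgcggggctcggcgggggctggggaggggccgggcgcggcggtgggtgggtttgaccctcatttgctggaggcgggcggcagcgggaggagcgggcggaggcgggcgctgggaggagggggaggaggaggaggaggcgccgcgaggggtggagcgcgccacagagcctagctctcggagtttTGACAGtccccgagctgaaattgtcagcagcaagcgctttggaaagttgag
Lmo1, chr7:109175158-109175457, minus strand: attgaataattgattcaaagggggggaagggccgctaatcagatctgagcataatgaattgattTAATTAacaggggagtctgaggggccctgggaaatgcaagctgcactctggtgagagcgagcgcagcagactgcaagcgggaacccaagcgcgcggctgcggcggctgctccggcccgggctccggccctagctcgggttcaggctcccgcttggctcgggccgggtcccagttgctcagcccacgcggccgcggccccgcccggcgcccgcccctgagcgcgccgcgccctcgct
Ldb1, chr19:46037021-46037320, minus strand: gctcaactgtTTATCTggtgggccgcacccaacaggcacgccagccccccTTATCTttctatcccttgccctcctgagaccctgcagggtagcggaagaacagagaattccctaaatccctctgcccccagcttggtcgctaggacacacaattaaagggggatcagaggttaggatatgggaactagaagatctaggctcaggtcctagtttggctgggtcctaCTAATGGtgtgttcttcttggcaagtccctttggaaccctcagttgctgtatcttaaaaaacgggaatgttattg

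The Lmo1 window holds TAATTA at position -186 relative to the start, a match that 5.29% of all 32851 RefSeq promoter windows have. The second Lmo4 start has TGACAG across its first base (19.2% of all windows), and its first start has no match. The Ldb1 window holds CTAATG at position -25, overlapped by TAATGG, which 7.36% and 7.73% of all windows hold, and AGATAA on the opposite strand (11.2%). Of 12 windows found for 6 of the 8 genes, 4 held at least 1 of these 5 motifs (33.3%), against 39.3% of all windows. The E-box CANNTG was in 72.3% of all windows and was not marked. These matches describe letters in windows near the starts, where no member peak lay, and say nothing of binding.

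ISL1 peaks lay around Tle1, Tle3, Tle4, Lmo1 and Lmo4, in each case with at least 1 peak within 100 kb of the TSS. Among all 26220 RefSeq genes with a curated transcript, 3.82% were nearest to a peak at any distance and 2.57% to a peak within 100 kb. The genes were picked from this list knowing that some had peaks, so the 5 of 8 is a description. It also takes no account of the room around each gene.

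The values used below are those of the authors' peak finder. Each peak spans 144 bp from start to end in mm9 coordinates and has a score, the authors' own measure of its height, which is used only within this list. All scores were whole multiples of 1.37, and if such a step is 1 sequencing tag, the 12 peaks rest on 8 to 28 tags each. Every tag number below, with its interval, holds only under that condition. These intervals also take no account of the floor that a peak had to pass to be listed. The focus ratio is the fraction of a peak's tags close to its centre. Distances are signed by the direction of transcription, so downstream means past the TSS and either inside or beyond the gene.

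**Figure D1:**
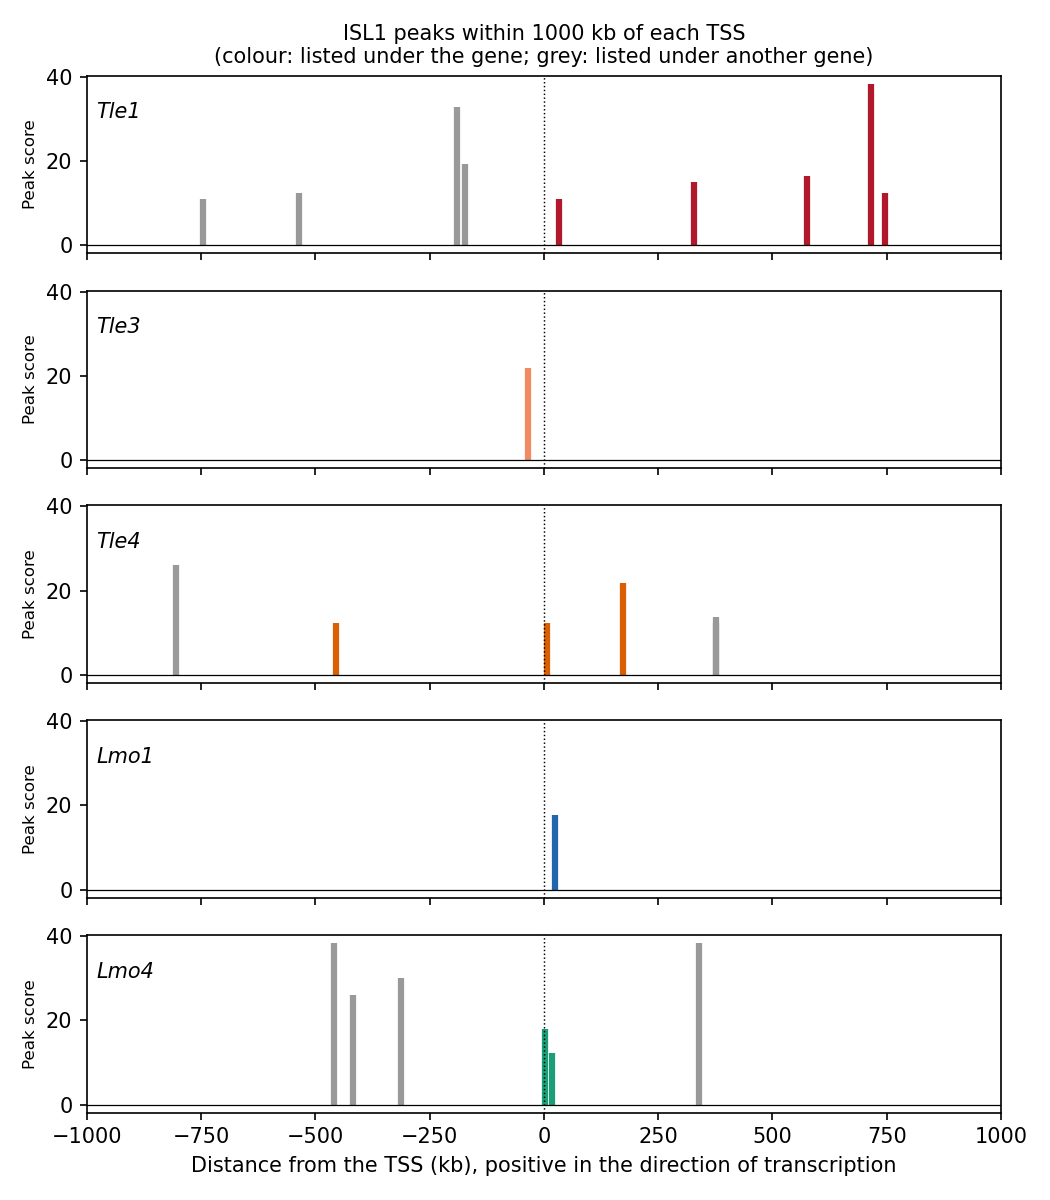
Peak score (vertical axis) against distance from the TSS in kb (horizontal axis, positive in the direction of transcription) for all ISL1 peaks within 1000 kb of the TSS of Tle1, Tle3, Tle4, Lmo1 and Lmo4 (for Lmo4, the first start). Coloured bars are peaks listed under the gene and grey bars those listed under another gene; all 5 Tle1 peaks lie on its downstream side, while Tle3 and Lmo1 have a single peak and no other in the window.

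Tle1, a broadly used Groucho-type corepressor gene on chromosome 4, had 5 peaks, the most of the 8 genes. Of RefSeq genes 0.107%, 28 in number, were nearest to 5 or more. That is 28 of the 1003 genes in the list, and 15 of them had more peaks than Tle1. Such a count takes no account of the room around a gene. The 5 Tle1 peaks spanned 714 kb, and all lay downstream of the TSS. The strongest, at chr4:71146367-71146511, had a score of 38.3 and a focus ratio of 0.805, was intergenic and lay 715 kb from the TSS. It was the highest of the 109 peaks on chromosome 4, and 98.8% of the whole list scored lower. If steps are tags, 28 tags stand behind it, with an exact Poisson 95% interval of 18.6 to 40.5.

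The other Tle1 peaks were lower. One at chr4:71285387-71285531, 576 kb away, scored 16.4 on 12 tags (6.20 to 21.0). The next, at chr4:71533002-71533146 and 329 kb away, scored 15.1, with a focus ratio of 0.875, the sharpest of the 12. The farthest, at chr4:71114592-71114736 and 747 kb away, scored 12.3, lay on a MIRb element of the SINE class and was the only member peak on a repeat. It stood 31.8 kb from the strongest peak.

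Inside Tle1 itself there was 1 peak, the lowest of the 12. It lay at chr4:71828744-71828888, 33.1 kb downstream, in intron 6 of 6 of the short transcript NM_001285531, with a score of 10.9 on 8 tags (3.45 to 15.8). Only 4.18% of the list scored lower. In this gene the peak closest to the start was thus the weakest and one of the 2 farthest was the strongest. If steps are tags, the interval of the weakest overlaps those of the Tle1 peaks at 329, 576 and 747 kb. Their scores therefore set no order among these peaks.

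That all 5 Tle1 peaks lay downstream follows from how peaks were assigned. The deposited distances put the start of the noncoding gene C630043F03Rik 351 bp from that of Tle1, on the opposite strand, so that the genes run head to head. A peak farther upstream of Tle1 than the midpoint between the 2 starts is therefore always nearer to C630043F03Rik. Such a peak could not be listed under Tle1. That gene was listed with 2 intergenic peaks, both 351 bp nearer to it than to Tle1. One at chr4:72051417-72051561 scored 32.8, which placed it 3 in rank on the chromosome, and one at chr4:72034764-72034908 scored 19.2. The 2 genes together were listed with 7 peaks. Within 1000 kb of the Tle1 start there were 9 peaks in all, 5 on its downstream side and 4 on its upstream side, where Aldoart1 was listed with the remaining 2 at 536 and 746 kb. That is a number reached around 3.87% of 750 listed genes, for which the median was 3.

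Tle4, a Groucho-type corepressor gene on chromosome 19, had 3 peaks. That number was reached or passed by 0.362% of RefSeq genes and by 95 of the 1003 listed genes. The strongest Tle4 peak lay at chr19:14499212-14499356, an intergenic site 173 kb downstream, with a score of 21.9 on 16 tags (9.15 to 26.0). By score it ranked 5 among the 24 peaks on that chromosome. A peak inside the gene, at chr19:14666769-14666913, lay 5.63 kb downstream of the TSS in intron 4 of 19 and scored 12.3 on 9 tags (4.12 to 17.1). The third, at chr19:15128023-15128167, was intergenic, 456 kb upstream, and also scored 12.3. The intervals of the 3 overlap. In Tle4 as in Tle1 the strongest peak was outside the gene and downstream, beyond the peak in the gene.

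Tle3, the third corepressor gene of the set, on chromosome 9, had 1 peak, at chr9:61185240-61185384. It was intergenic, 34.9 kb upstream of the TSS, and scored 21.9 on 16 tags (9.15 to 26.0), more than 86.3% of the list. Its focus ratio of 0.583 was the second lowest of the 12, so its tags were spread more widely than those of most member peaks. No other peak lay within 1000 kb of this start, and the next peak along the chromosome was 973 kb from the Tle3 peak, under Thsd4. In gene order, the 3 neighbours on each side of Tle3 had no peak listed under them. Only 3.82% of all RefSeq genes were nearest to a peak. Neighbours without one, here and below, therefore set no locus apart.

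The remaining Tle genes had no peak. Tle2, Tle5 (a short form that lacks the repeat domain through which the full-length proteins bind partners) and Tle6 stand side by side on chromosome 10 in gene order. No peak was listed under them or under the 3 neighbours on each side of any of them.

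**Figure D2:**
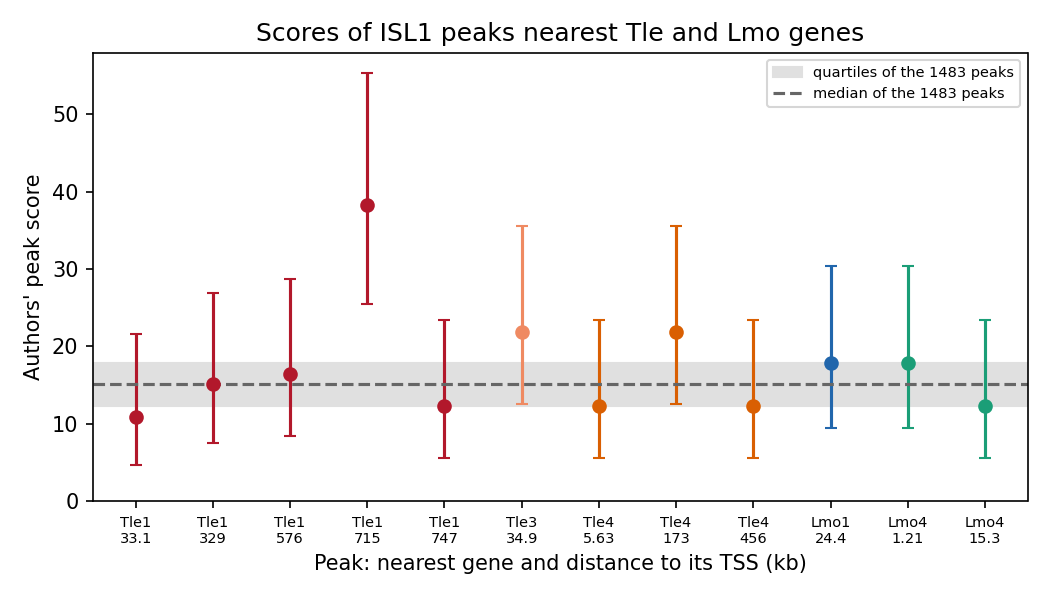
Authors' peak score (vertical axis) of each of the 12 peaks, labelled by nearest gene and distance to the TSS in kb, with exact Poisson 95% intervals if score steps are tags; the dashed line and grey band are the median and quartiles of all 1483 peaks. The Tle1 peak at 715 kb, with a score of 38.3, is the one peak whose interval lies wholly above the band.

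Lmo4, a LIM-only gene on chromosome 3 whose protein binds LDB adaptors, had 2 peaks close to its start. At any distance, 1.05% of RefSeq genes and 275 of the 1003 listed genes had 2 or more. The stronger Lmo4 peak lay at chr3:143866936-143867080 in intron 1 of 4 of NM_010723. It scored 17.8 on 13 tags (6.92 to 22.2), with a focus ratio of 0.850. It was the member peak closest to a TSS, 1211 bp downstream. The list assigns the other Lmo4 peak to a second start, that of NM_001161770, 2923 bp further into the gene, which is the spacing of the 2 printed windows. The intron 1 peak thus lay between the 2 starts, 1712 bp upstream of the second. The other peak, at chr3:143849916-143850060, was intergenic, 15.3 kb downstream of the second start and 17.0 kb from the first peak. It scored 12.3 on 9 tags (4.12 to 17.1), and its focus ratio of 0.562 was the lowest of the 12.

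Stronger peaks flanked Lmo4 at a distance. Within 1000 kb of its first start, 4 more peaks were listed under other genes. They were an intergenic peak of score 38.3 at 339 kb downstream (Gm6260), and upstream peaks of 30.1 at 314 kb (in intron 1 of Hs2st1), 26.0 at 418 kb (Sep15) and 38.3 at 460 kb (Sh3glb1). All 4 scored higher than both Lmo4 peaks. A start could be placed for 750 of the 1003 listed genes. Windows around 14.8% of these 750 held 6 peaks or more, as this one and that of Tle4 did.

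Lmo1, the LIM-only gene on chromosome 7, had 1 peak, at chr7:116289322-116289466. It lay 24.4 kb downstream of the TSS in intron 1 of 3 of NM_057173 and scored 17.8 on 13 tags (6.92 to 22.2), with a focus ratio of 0.706. The list has no other peak within 1000 kb of this start. A window with 1 peak, as here and around Tle3, was the lower quartile among 750 listed genes. It therefore sets neither locus apart. The next peak along the chromosome was 1136 kb from the Lmo1 peak, in a 3′ UTR and listed under Swap70. The 3 neighbours on each side of Lmo1 had no peak either.

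Lmo2, which encodes a LIM-only bridging protein of blood and endothelial development, and the adaptor genes Ldb1 and Ldb2 had no peak at any distance and no peak in their bodies listed under another gene. In gene order the 3 neighbours on each side of each of them were without a peak as well. The same held for Lmo3, a LIM-only gene outside the set. This says that no peak there reached the authors' list. The lowest score kept in the list was 8.21, or 6 tags if steps are tags. Sites below that floor are not in the list, and what set the floor is not given in the labels or headers.

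As a group, the 12 peaks had a median score of 15.8 (order-statistic 95% interval 12.3 to 21.9), against 15.1 in the 1471 other peaks, whose quartiles were 12.3 and 17.8. Of the 12, 5 (41.7%, exact Clopper-Pearson interval 15.2 to 72.3) reached the 75th percentile, against 29.3% of the others. That limit is 17.8, a score shared by 115 peaks of the list. The Lmo1 peak and the higher Lmo4 peak are among those 115 and reach the limit only by a tie. The median focus ratio was 0.699 in the 12 and 0.739 in the others. These values describe one list and were not tested, since the genes were chosen from it.

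By place, 8 of the 12 peaks were intergenic and 4 intronic (33.3%, 9.92 to 65.1), against 40.9% intronic among the others. None was annotated as a promoter peak, with an exact Clopper-Pearson interval of 0 to 26.5%, against 3.26% of the others. All 4 intronic peaks lay in the gene they were listed under, against 71.9% of the 595 other intronic peaks whose host gene was matched. Of the 12, 10 lay downstream of the TSS (83.3%, 51.6 to 97.9), against 58.6% of the others. The Tle1 peaks make up 5 of those 10, and their side was set by the assignment given above. The interval takes no account of this.

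As listed, the Tle peaks reached farther from their starts than the Lmo peaks. The 9 Tle peaks had a median distance of 329 kb, and 5 of them (55.6%, 21.2 to 86.3) lay beyond 300 kb, against 14.8% of the peaks outside the set. The 3 Lmo peaks lay between 1.21 and 24.4 kb, so every Lmo peak was closer to its TSS than 8 of the 9 Tle peaks, the exception being the Tle4 peak in intron 4. Of the 5 Tle peaks beyond 300 kb, 4 were those of Tle1. For the 3 Lmo peaks the share beyond 300 kb was 0% (0 to 70.8), an interval that overlaps that of the Tle peaks. The closest peaks lay at 33.1 kb for Tle1, 34.9 kb for Tle3 and 5.63 kb for Tle4, against 24.4 kb for Lmo1 and 1.21 kb for Lmo4. Distances also depend on the assignment, as peaks 314 to 460 kb from the first Lmo4 start were listed under other genes. Scores of the Tle and Lmo peaks overlapped, as the Tle peaks ranged from 10.9 to 38.3 and the Lmo peaks from 12.3 to 17.8.

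**Figure D3:**
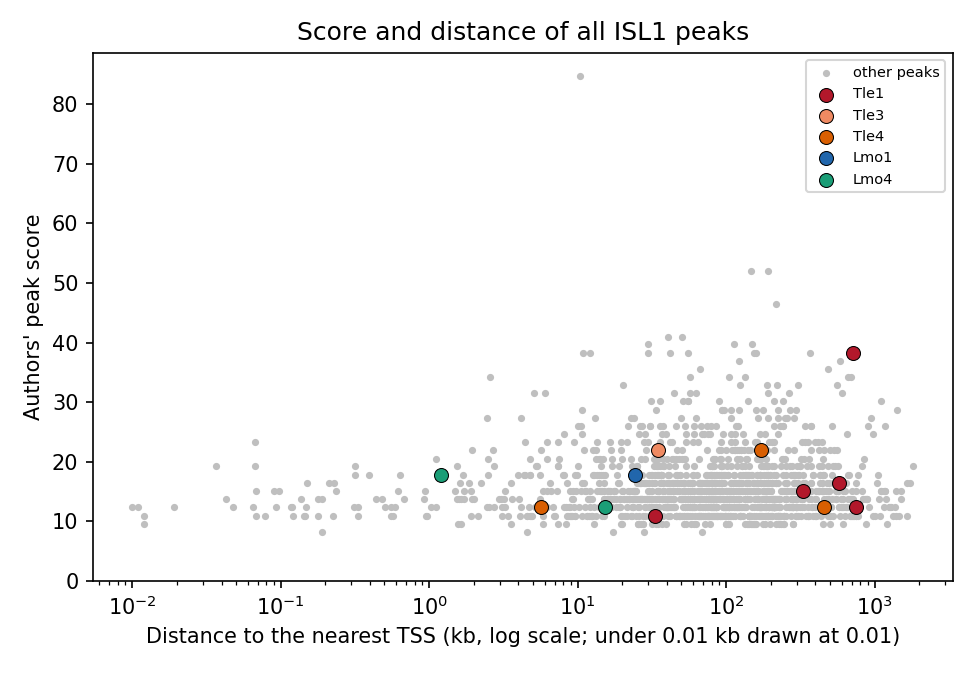
Authors' peak score against distance to the nearest TSS in kb (log scale) for all 1483 peaks, with those of Tle1, Tle3, Tle4, Lmo1 and Lmo4 in colour and the others in grey. The Tle1 peaks reach 747 kb, whereas the 3 Lmo peaks lie within 24.4 kb, and all but the Tle1 peak of score 38.3 fall among the bulk of scores.

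Genes that act with these proteins were read from 5 lists. Of 6 Tle family genes, 3 were nearest to a peak, all of them among the 8 genes of the set, and of the 3 family genes outside the set 0 were. Of 14 LIM-only, LDB and related LIM-domain genes, 3 were: Lmo1, Lmo4 and Fhl2, a LIM-domain cofactor gene of the heart with a peak of score 12.3 at 19.3 kb upstream and the 1 such gene among the 9 outside the set. Of 12 LIM-homeodomain genes only Isl1 was, with 2 intergenic peaks that lay 185 and 200 kb upstream. Of 18 genes of LIM complexes 2 were: Gata3, with a peak of 17.8 at 274 kb downstream, and Tcf12, an E-protein gene, with a peak of 16.4 in its intron 5 of 19. The adaptor-binding genes Ssbp1 to Ssbp4 and the cardiac factors Gata4, Gata5 and Gata6 had none. The shares were 8.33% (exact Clopper-Pearson interval 0.211 to 38.5) of the LIM-homeodomain genes and 11.1% (1.38 to 34.7) of the LIM complex genes. Both intervals take in the 3.82% of all RefSeq genes. The Tle family stood at 50% (11.8 to 88.2) and the LIM-only and LDB list at 21.4% (4.66 to 50.8), with genes of the set counted.

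Of 22 genes of DNA-binding factors that bring TLE proteins to DNA, 6 were nearest to a peak (27.3%, exact Clopper-Pearson interval 10.7 to 50.2), 4 of them within 100 kb. Six2, a homeobox gene, had the strongest, with a score of 34.2 at 135 kb upstream, and a second of 12.3 at 170 kb. Foxa1, a forkhead gene, had a peak of 16.4 at 49.5 kb downstream. Tcf7l2, a WNT effector gene, had one of 15.1 in intron 5 of 12, and Runx2 one of 13.7 in intron 4 of 7. Hes1, a Notch target that recruits TLE, had one of 12.3 at 5.83 kb upstream, and Prdm1 was the sixth. Lef1, Tcf7, Tcf7l1, Hey1, Hey2 and Runx1 had none. For comparison, 3.82% of all RefSeq genes were nearest to a peak; the lists were drawn up with earlier results of these data known, and were not tested.

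**Figure D4:**
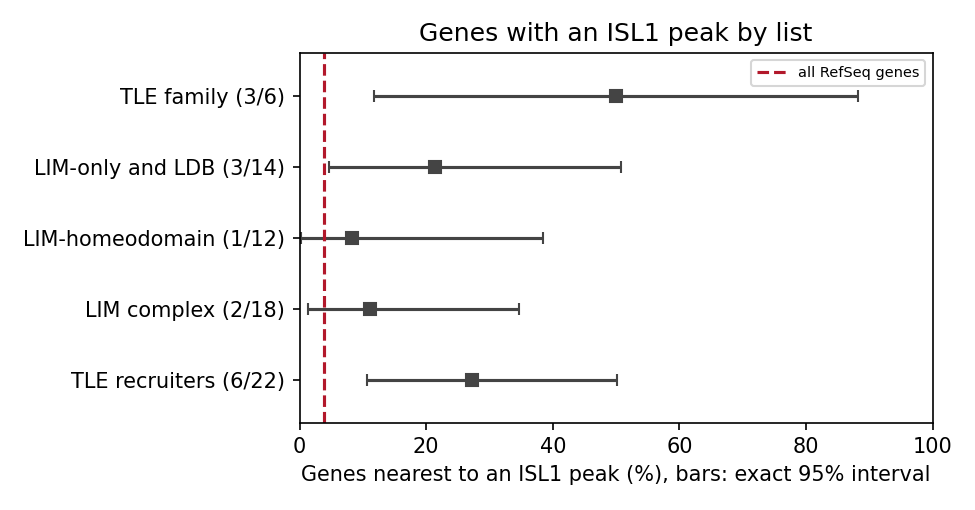
Share of genes nearest to an ISL1 peak at any distance (horizontal axis, percent) in 5 lists of related genes, with exact 95% intervals and counts beside the names; the dashed line is the share among all RefSeq genes, 3.82%. The Tle family stands at 50%, with 3 of 6 genes, and the factors that recruit TLE proteins at 27.3%; the genes were chosen with their peaks known, and without the 8 genes of the set the first 2 lists hold 0 of 3 and 1 of 9, so the distance from the line is no test.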

How the data were processed

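Chromatin bound by ISL1 in sorted sinoatrial node cells was sequenced in 1 library, and the peak list of that library was used; the input library was not analysed here. Crosslinkers were applied in turn per the labels' protocols, disuccinimidyl glutarate (2 mM, 30 min) and then formaldehyde (1%, 10 min). Fragments measured 100 to 400 bp, and 5 µg of anti-ISL1 was used. The glutarate links proteins to proteins, so a peak can also reflect ISL1 held through a partner, and shearing limits how finely a site is placed. Bowtie, HOMER and mm9 are named per the submitters' processing notes, without roles or versions. Per the file headers, peaks were annotated on mm9 by HOMER from a table named for a comparison with input. The sources used here do not give the caller's settings. Peaks were called on 1 library, not on pooled replicates.

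The deposited score is the authors' own number per peak, of unstated scaling. The deposited focus ratio is a fraction. Distances are base pairs to the nearest TSS, per the file headers. From these, positions of starts in mm9 were derived from peak centres and signed distances, and score steps by a search that left 0 of 1483 scores unmatched at their printed rounding. The search and the Poisson interval were tested on simulated data. Intervals are at the 95% level (Python 3.11.15, scipy 1.17.1): Poisson for tags, Clopper-Pearson for shares, order statistics for medians. Total reads were not analysed here, so depth is known only through the score steps.

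Of 1003 nearest genes, 1002 matched a RefSeq table of GRCm38.p6 by gene identifier; it served for names, gene order and the background. Promoter windows came from RefSeq, build GRCm38.p6, and their coordinates are not comparable with the mm9 peaks. All peaks of the 8 genes are named. From each related list, up to 5 further genes with a peak are named, those with the highest scores; Prdm1 was named outside that rule to complete a count, and genes without a peak were named as examples. C630043F03Rik and Lmo3 were singled out after their values were seen or their family place was known. The genes and lists were chosen with earlier results of these data known, so no test was made. Alternatives changed the score limit, the merging of neighbouring peaks, repeats, host genes and the distance limit.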

Additional observations from a re-analysis of the deposited data

How the results depend on the processing

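The number of the 8 genes with a peak stayed at 5 when peaks were limited to those at or above the median or the 75th percentile of score, merged within 1 kb, kept off repeats or limited to 100 kb. The number of their peaks, 12 in the list, was 7 at or above the median score, 5 at or above the 75th percentile, 6 within 100 kb, and 7 without Tle1, an alternative chosen after seeing the data. Genes with a peak within 100 kb numbered 5 in the list and 3 at or above either score limit. The 75th percentile is 17.8, which is also the top score of Lmo1 and of Lmo4. In these counts both genes therefore pass that limit only by a tie. The intronic share was 33.3% in the list and 66.7% within 100 kb. Of the genes of the 5 related lists, 15 had a peak and 7 had one at or above the 75th percentile. These shifts come from removing peaks. The median distance, 104 kb in the list, was 24.4 kb without Tle1, 34.9 kb without repeats or at or above the 75th percentile, and 19.9 kb within 100 kb, all inside its 95% interval of 15.3 to 576 kb. Counting the peaks of C630043F03Rik with Tle1, also chosen after seeing the data, gave 14 peaks and a median score of 17.1. In all, 48 of 56 comparisons of a summary value with its alternative stayed close to it (counts to within the ratio limit of 1.5, medians and shares within their 95% intervals). Some of these could not move: merging peaks and counting host genes left the same 12 peaks, and the interval of the distance is wide. The tally is therefore no measure of stability. No paired analysis was possible because there is 1 ISL1 library and no test. Few tags limit each score: if steps are tags, counting intervals of 11 of the 12 peaks reach into the quartiles of all scores.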
